A study of Mus musculus with 11 samples.

Results

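Fast skeletal muscle contractile genes were measured in the naive mammary gland of the mouse, in tissue segments picked by a periostin lineage label. They are 10 genes chosen by name, Myh1, Myh4, Mylpf, Acta1, Tnni2, Tnnt3, Tnnc2, Atp2a1, Pvalb and Ckm, out of 19962 genes targeted by the panel, and each was read by 1 probe. The tissue came from periostin lineage tracing mice, in which ZSGreen marks cells that make or have made periostin. The animals were naive, with no treatment given in the labels, and no age or sex is given. Frozen mammary glands of 3 mice, fixed in paraformaldehyde, were hybridised with GeoMx whole-transcriptome probes. Areas were picked by podoplanin (Pdpn) and smooth muscle actin (SMA) staining, and from each only the ZSGreen-positive segment was collected. Of 12 areas collected, 11 were analysed, 6 of them Pdpn-adjacent (near lymphatic vessels; regions 2, 3, 4, 7, 8 and 11) and 5 SMA-adjacent (near ducts and blood vessels; regions 1, 5, 6, 9 and 10). Which mouse gave which region is not in the labels. There were more regions per group than mice, so some regions share a mouse, and a p-value that takes regions as independent can be too small. A ZSGreen-positive segment is a small area of tissue and can hold parts of several cells of different types.

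Skeletal muscle shortens when myosin motors of the thick filament pull on actin thin filaments. Troponin on the thin filament blocks this until calcium, released from the sarcoplasmic reticulum, binds to it. Fibres are classed as slow or fast by the myosin heavy chain they make, and fast fibres use their own isoforms of myosin, troponin, the calcium pump and calcium buffers. In mice the fast heavy chain genes Myh2, Myh1 and Myh4 mark fibre types IIA, IIX and IIB in the order from oxidative to glycolytic. The mammary fat pad is a stroma of fat, fibroblasts, vessels and ducts beneath the skin, and skeletal muscle is not part of the fat pad itself.

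Levels are given as times background, the count of a probe divided by the geometric mean of the 210 negative-control probes in the same region. A probe is called above the floor where it exceeded the mean of the negative probes by 2 SDs on the log2 scale. Endogenous counts summed to between 22757 and 2271664 in the Pdpn-adjacent regions and between 760761 and 3086323 in the SMA-adjacent regions. Regions 2, 3 and 11 were the shallowest, at 22757, 81760 and 30316. The lowest value in the table is 1, and 90.0% of probes in region 2 and 77.6% in region 11 stood at it. In these 2 regions a count of 2 already passes the floor and rests on 1 count more than the lowest value. As a check of the labels, Acta2, the smooth muscle actin gene, lay between 0.952 and 10.0 times background where regions were Pdpn-adjacent, and between 12.9 and 87.5 times where they were SMA-adjacent. Pdpn and Postn transcripts stood at 0.375 to 1.79 and 0.889 to 4.09 times in Pdpn-adjacent regions, against 1.56 to 1.95 and 1.84 to 5.13 times in SMA-adjacent regions. Pdpn was above the floor in 0 regions of either group and was not higher in the Pdpn-adjacent ones. Its transcript therefore gives no check of the Pdpn label.

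Fast muscle transcripts were found in regions of both groups, at levels that differed far more between regions than between the groups. All 10 genes were above the floor in Pdpn-adjacent regions 3 and 7, where 2.77% and 5.73% of all probes were. In the other Pdpn-adjacent regions 9 of the 10 were above it in region 2 (10.0% of all probes), 7 in region 8 (10.2%), 4 in region 11 (22.4%) and 1 in region 4 (9.23%). Among SMA-adjacent regions 9 were above it in region 5 (8.79% of all probes) and in region 10 (19.2%), 7 in region 9 (19.1%), 2 in region 1 (12.2%) and 1 in region 6 (12.5%). Of 110 gene and region pairs, 69 were above the floor.

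**Figure D1:**
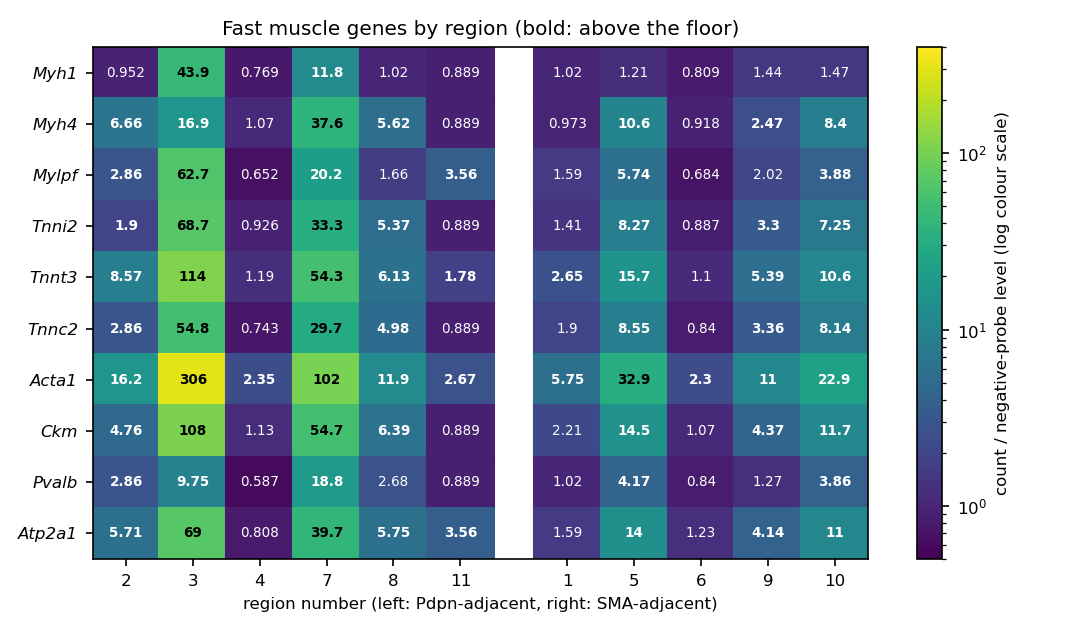
Level of each of the 10 genes (rows) in each region (columns, Pdpn-adjacent at left and SMA-adjacent at right), as count divided by the negative-probe level on a log colour scale; numbers are the same values and bold ones are above the floor. Regions 3 and 7 are high for all 10 genes, regions 5 and 10 are intermediate for most, and regions 4 and 6 are near 1 for all but Acta1.

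Together the 10 genes took 2.78% of all endogenous counts in region 3 (95% exact binomial interval 2.67% to 2.90%) and 1.22% in region 7 (1.18% to 1.27%). In the other Pdpn-adjacent regions the share was 0.246% in region 2 (0.186% to 0.319%), 0.134% in region 8, 0.0627% in region 11 and 0.0345% in region 4. The SMA-adjacent regions had 0.416% in region 5 (0.409% to 0.424%), 0.244% in region 10, 0.109% in region 9, 0.0598% in region 1 and 0.0335% in region 6. The Pdpn-adjacent mean was 0.747% ± 1.09 (SD, n = 6) and the SMA-adjacent mean 0.173% ± 0.159 (SD, n = 5), and the groups overlapped. The intervals cover counting error at most. Probe counts come from amplified reads and the labels do not describe the removal of duplicates. These intervals, and the other counting intervals below, can therefore be too narrow. The summed counts themselves ran from 19 in region 11 to 12848 in region 5, with 2276 in region 3 and 2763 in region 7. A higher share can come from more muscle cells, from more RNA per cell or from less other RNA in the segment. These cannot be told apart.

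**Figure D2:**
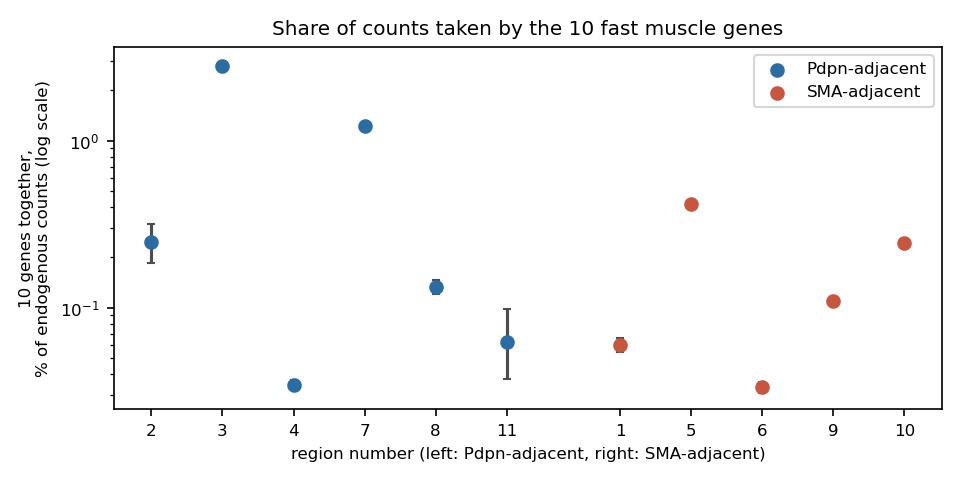
Share of all endogenous counts taken by the 10 genes together in each region, on a log axis, with 95% exact binomial intervals as bars (smaller than the point where not visible). Regions 3 and 7, at 2.78% and 1.22%, lie above every SMA-adjacent region, while region 4, at 0.0345%, lies beside SMA-adjacent region 6, at 0.0335%.

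The order of regions was nearly the same for every gene. Regions 3 and 7 held the first and second place for all 10 genes, as 6.13% of all probes did in some order. Region 3 led for 8 genes, and region 7 led for Myh4 and Pvalb. For Acta1 the 95% counting intervals of region 3 (286 to 328 times background) and region 7 (94.6 to 110 times) did not overlap. Region 5 and then region 10 came next for 9 of the 10 genes, with Myh1 as the exception. At the low end regions 4 and 6 could not be told from background for most genes.

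The myosin heavy chains Myh1 and Myh4 shared their 2 highest regions but not the others. Myh1 encodes the heavy chain of type IIX fibres and Myh4 that of type IIB fibres. They lie next to each other on chromosome 11 (GRCm38.p6), Myh1 (gene ID 17879) at 67200102 to 67224577 with its probe at 67206482 to 67206516, and Myh4 (17884) at 67237812 to 67260447 with its probe at 67243454 to 67243495. Myh2 (17882), the type IIA gene of the same cluster, lies at 67171027 to 67197517 with its probe at 67173237 to 67173276. The promoters of these 3 genes are shown because the genes are neighbours with related sequence whose relative levels differed between regions. The 250 bases before each start site are printed from RefSeq on GRCm38.p6, plus strand, at chr11:67199852-67200101 for Myh1, chr11:67237562-67237811 for Myh4 and chr11:67170777-67171026 for Myh2, and capitals mark the longest run of letters that all 3 share.
Myh1: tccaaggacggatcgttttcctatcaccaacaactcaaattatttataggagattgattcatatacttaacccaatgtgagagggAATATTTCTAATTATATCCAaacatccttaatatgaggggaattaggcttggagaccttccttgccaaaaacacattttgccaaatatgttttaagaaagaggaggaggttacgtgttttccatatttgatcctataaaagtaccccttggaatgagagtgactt
Myh4: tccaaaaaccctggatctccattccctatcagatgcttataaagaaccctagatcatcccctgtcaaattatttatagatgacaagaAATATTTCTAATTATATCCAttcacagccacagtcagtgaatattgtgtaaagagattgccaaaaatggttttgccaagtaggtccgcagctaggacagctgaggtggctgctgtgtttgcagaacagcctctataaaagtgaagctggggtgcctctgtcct
Myh2: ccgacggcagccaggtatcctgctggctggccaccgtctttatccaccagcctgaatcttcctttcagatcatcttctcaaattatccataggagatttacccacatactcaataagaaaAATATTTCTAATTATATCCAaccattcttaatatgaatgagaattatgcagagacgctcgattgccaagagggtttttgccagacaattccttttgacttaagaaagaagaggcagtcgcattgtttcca
The shared run is 20 bases long and starts at -165, -163 and -130 from the start sites of Myh1, Myh4 and Myh2. It was present in 3 of the 15743 promoters of panel genes searched on both strands, these 3. The TATA sequence TATAAA occurred on the given strand 1 time in the Myh1 window and 2 times in the Myh4 window, and in 7.37% of all promoters. A motif named MEF2, after the muscle transcription factor that binds it, matched 1 time each in Myh1 and Myh4, against 2.55% of all promoters, both strands searched. The E-box CANNTG, the site read by myogenic factors, matched 2 times in Myh4 and 0 times in Myh1, against 61.5% of all promoters. The same windows could be read for 8 of the 10 genes, of which 6 held an E-box, 3 a MEF2 match, 2 a CArG box (1.21% of all promoters), the site of serum response factor, and 3 TATAAA. These matches are letters in a window and say nothing of binding.

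Myh1 was above the floor in regions 3 and 7 alone. It stood at 0.952, 43.9, 0.769, 11.8, 1.02 and 0.889 times background in Pdpn-adjacent regions 2, 3, 4, 7, 8 and 11. In SMA-adjacent regions 1, 5, 6, 9 and 10 it stood at 1.02, 1.21, 0.809, 1.44 and 1.47 times. The raw counts behind the high regions were 117 in region 3 and 81 in region 7, and the other 9 regions lay within the spread of the negative probes. Myh4 was more widely spread, at 6.66, 16.9, 1.07, 37.6, 5.62 and 0.889 times background in Pdpn-adjacent regions 2, 3, 4, 7, 8 and 11. In SMA-adjacent regions 1, 5, 6, 9 and 10 it stood at 0.973, 10.6, 0.918, 2.47 and 8.40 times. It was above the floor in 4 of 6 Pdpn-adjacent and 3 of 5 SMA-adjacent regions, and the groups overlapped.

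The ratio of the 2 heavy chains was turned round in region 3. There Myh1 made up 72.2% of the summed Myh1 and Myh4 counts (95% exact binomial interval 64.7% to 79.0%), and in region 7 it made up 23.9% (19.5% to 28.8%). In region 8 it made up 15.4% (6.88% to 28.1%). In SMA-adjacent regions 5 and 10 it made up 10.3% (8.72% to 12.1%) and 14.9% (11.5% to 18.8%), and background alone supplies part of those Myh1 counts. In region 9 it made up 36.8%, with Myh1 below the floor and Myh4 at 2.47 times background. Myh2 was above the floor in region 3 alone, at 16.9 times background from 45 counts, against 1.60 times in region 7 and at most 2.02 times in any SMA-adjacent region. Region 3 thus held transcripts of all 3 fast heavy chains, and region 7 held Myh4 and Myh1. Regions 2, 5, 8 and 10 held Myh4 with neither Myh1 nor Myh2 above the floor. Region 9 had the same calls, but its 213 Myh4 counts lay below the floor of 3 SDs (251) and the highest negative probe (250). The 3 genes are near-identical over much of their coding sequence, and whether a probe also reads a neighbour's transcript was not tested.

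**Figure D3:**
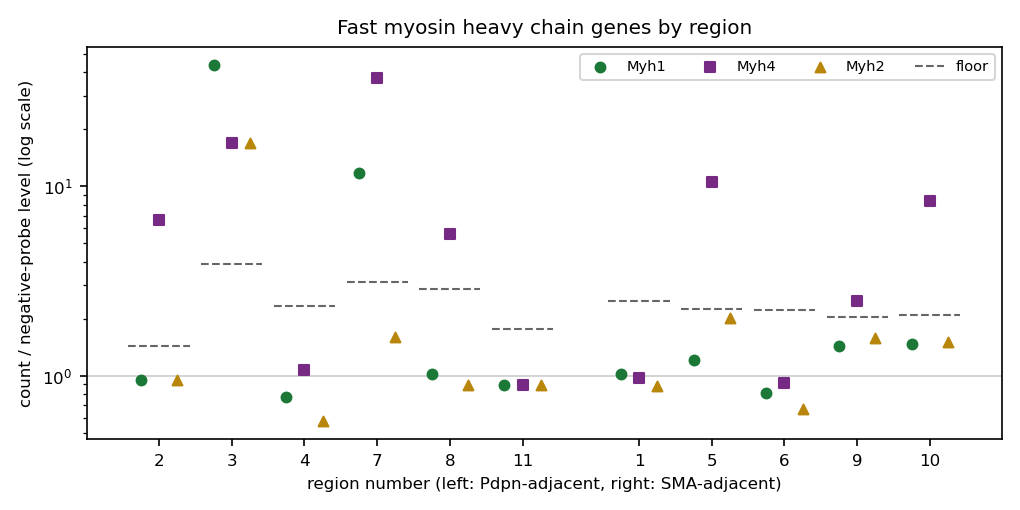
Levels of the heavy chain genes Myh1, Myh4 and Myh2 in each region as count divided by the negative-probe level, on a log axis, with the floor of each region as a dashed line. Myh1 lies above Myh4 in region 3 (43.9 against 16.9 times), below it in region 7 (11.8 against 37.6 times), and below the floor in the other 9 regions.

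The light chain and the actin of fast fibres followed the general order. Mylpf (17907) encodes the fast regulatory light chain, which binds the neck of the myosin head, and its probe lies at chromosome 7, 127213429 to 127213463. Mylpf had a lowest, median and highest level of 0.652, 3.21 and 62.7 times background in Pdpn-adjacent regions, and 1.59, 5.74, 0.684, 2.02 and 3.88 times in SMA-adjacent regions 1, 5, 6, 9 and 10. It was above the floor in 4 of 6 and 2 of 5 regions, and in region 8 it stood at 1.66 times, below the floor, where 7 of the other genes were above it. Acta1 (11459), the skeletal muscle actin of the thin filament, has its probe at chromosome 8, 123892329 to 123892363. Acta1 stood at 16.2, 306, 2.35, 102, 11.9 and 2.67 times background in Pdpn-adjacent regions 2, 3, 4, 7, 8 and 11. In SMA-adjacent regions 1, 5, 6, 9 and 10 it stood at 5.75, 32.9, 2.30, 11.0 and 22.9 times. It was above the floor in all 11 regions, the only one of the 10 that was. In regions 4 and 6 it was only just above, with 180 counts against 179 and 148 against 143. In both it lay below the floor of 3 SDs (273 and 214) and the highest negative probe (287 and 241). With 816 counts it was the most abundant of all 19965 endogenous probes in region 3, and it ranked 5 in region 7, 6 in region 2 and 7 in region 5. In region 11 its level rested on 3 counts, no more than the highest negative probe, and in region 2 on 17.

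The fast troponin subunits moved together over regions. Troponin I (Tnni2, 21953) holds actin blocked at rest, troponin T (Tnnt3, 21957) ties the complex to tropomyosin, and troponin C (Tnnc2, 21925) binds the calcium. The Tnni2 and Tnnt3 probes lie close to each other on chromosome 7, at 142444271 to 142444305 and 142512553 to 142512589, and the Tnnc2 probe lies at chromosome 2, 164778002 to 164778036. Tnnt3 had a lowest, median and highest level of 1.19, 7.35 and 114 times background in Pdpn-adjacent regions, and 2.65, 15.7, 1.10, 5.39 and 10.6 times in SMA-adjacent regions 1, 5, 6, 9 and 10. Tnni2 had 0.889, 3.63 and 68.7 times in Pdpn-adjacent regions, and 1.41, 8.27, 0.887, 3.30 and 7.25 times in the same SMA-adjacent regions. Tnnc2 had 0.743, 3.92 and 54.8 times in Pdpn-adjacent regions, and 1.90, 8.55, 0.840, 3.36 and 8.14 times in those SMA-adjacent regions. For all 3 the highest value was region 3 and the next region 7, both above every SMA-adjacent region, while regions 4 and 11 lay among the lowest.

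Calcium handling and energy genes had the same high regions with some differences of rank. Atp2a1 (11937) encodes the fast isoform of the calcium pump that refills the sarcoplasmic reticulum, with its probe at chromosome 7, 126460752 to 126460789. Atp2a1 had a lowest, median and highest level of 0.808, 5.73 and 69.0 times background in Pdpn-adjacent regions, and 1.59, 14.0, 1.23, 4.14 and 11.0 times in SMA-adjacent regions 1, 5, 6, 9 and 10. Ckm (12715), the muscle creatine kinase that restores ATP from phosphocreatine, has its probe at chromosome 7, 19415000 to 19415034. Ckm had 0.889, 5.57 and 108 times in Pdpn-adjacent regions, and 2.21, 14.5, 1.07, 4.37 and 11.7 times in those SMA-adjacent regions. Its probe ranked 3 of all in region 3 and 10 in region 7. Pvalb (19293), parvalbumin, is a cytosolic calcium buffer that speeds relaxation and is richest in IIB fibres, and its probe lies at chromosome 15, 78204108 to 78204142. Pvalb stood at 2.86, 9.75, 0.587, 18.8, 2.68 and 0.889 times background in Pdpn-adjacent regions 2, 3, 4, 7, 8 and 11. In SMA-adjacent regions 1, 5, 6, 9 and 10 it stood at 1.02, 4.17, 0.840, 1.27 and 3.86 times. Like Myh4, it was higher in region 7 than in region 3, with 129 against 26 counts.

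The make-up of the muscle signal was compared over the 6 regions where at least 7 of the 10 genes were above the floor and the background was over 2 counts (regions 3, 7 and 8, and SMA-adjacent regions 5, 9 and 10), a rule set after the values were seen. Each gene's count over background was divided by that of Acta1 in the same region, so that the amount of muscle RNA cancels; the ratio compares regions for 1 gene and not genes with each other, since probes differ in efficiency. Only regions where a gene was itself above the floor were used for it. Over all 6 regions the highest ratio was 1.42 times the lowest for Tnnt3, 1.58 times for Ckm, 1.81 times for Tnni2, 2.06 times for Atp2a1 and 2.08 times for Tnnc2. Mylpf spanned 1.53 times over the 4 regions where it was above the floor (3, 7, 5 and 10), and Myh1 1.32 times over its 2 (0.141 in region 3 and 0.107 in region 7). This rule leaves out the regions where Myh1 was low, so its 1.32 times does not mean that it followed Acta1. With regions below the floor included, its ratio fell to 0.0067 in region 5 and 0.0020 in region 8, a span of 69.05 times. Of the spans limited to regions above the floor, that of Myh4 was the widest, at 8.16 times over all 6 regions. Myh4 had its lowest ratio in region 3 (0.0521) and its highest in region 8 (0.425). Pvalb spanned 6.13 times over 4 regions, with 0.0287 in region 3, 0.176 in region 7, 0.0991 in region 5 and 0.131 in region 10. Both had their lowest ratio in region 3, but so did Tnnt3 (0.370), Atp2a1 (0.223), Tnni2 (0.222) and Tnnc2 (0.176). Among the genes lowest in region 3, only the width of the span set Myh4 and Pvalb apart. Myh1 and Mylpf went the other way, with their highest ratios in region 3.

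In the comparison of Pdpn-adjacent with SMA-adjacent regions, all 10 genes had positive log2 fold changes and 0 passed the threshold. The edgeR quasi-likelihood test over 19935 probes, with Benjamini-Hochberg adjustment at 0.05, called 2 probes in all, both higher and neither among these genes (0.0100% of those tested). At an unadjusted p under 0.05 it gave 8 of the 10 as higher and 0 as lower, against 2.84% of all probes higher and 3.19% lower. The log2 fold changes, Pdpn-adjacent minus SMA-adjacent, ran from 1.41 to 3.01 with a median of 2.19, where the median of all probes was 0.01. DESeq2 called 17 probes (0.0853%) and limma-voom 0, in each case none of the 10 genes. All p-values here treat regions as independent, which they are not where regions share a mouse.

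Myh1 averaged 324 ± 566 CPM in Pdpn-adjacent (SD, n = 6) and 36.6 ± 8.03 CPM in SMA-adjacent regions (SD, n = 5), where CPM is the count scaled to library size with TMM factors. It was below the floor in all 5 SMA-adjacent regions, so its log2 fold change is against background. That change was 3.01 ± 0.68 SE (edgeR adjusted p = 0.108), where limma-voom gave 1.76 and 1.01 with array weights, and an exact two-sided permutation test over the 462 ways to form the groups gave p = 0.468 on log2 CPM. Mylpf averaged 504 ± 797 CPM against 87.7 ± 69.1 CPM, which is 2.52 ± 0.76 SE on the log2 scale (adjusted p = 0.451 with edgeR, exact permutation p = 0.329). Acta1 averaged 2410 ± 3942 CPM against 473 ± 428 CPM, or 2.36 ± 1.20 SE on that scale (edgeR adjusted p = 0.853, exact permutation p = 0.515). Across the other 7 genes the fold changes were 2.22 for Tnni2, 2.20 for Tnnt3, 2.19 for Ckm, 1.88 for Tnnc2, 1.78 for Atp2a1, 1.47 for Pvalb and 1.41 for Myh4, and their edgeR adjusted p-values were 0.656 or above. For each gene 2 of 6 Pdpn-adjacent regions lay above every SMA-adjacent region, and for 0 of the 10 did all 6, as 0.446% of all probes did; for 0 of the 10 did all 6 lie below, as 0.391% of all probes did. The SD exceeded the mean in Pdpn-adjacent regions for every gene. Exact permutation p-values ran from 0.329 to 0.576. The smallest that this two-sided test can give with 462 groupings is 0.00433, the value it gave for Acta2. Shared mice can make these p-values too small.

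The group difference rested on regions 3 and 7. Without both, every one of the 10 log2 fold changes was negative, from -1.50 for Mylpf to -0.54 for Myh1 with a median of -1.07, and 0 were called (lowest edgeR adjusted p = 0.673). These 2 regions were picked from the same values, as the highest for all 10 genes. Leaving them out lowers the Pdpn-adjacent side by construction, so the negative sign is no result about the other regions. Without region 3 alone all 10 stayed positive, between 0.93 and 1.29. Without region 7 alone 9 stayed positive, with Myh4 at 0.28, and Pvalb turned to -0.25. Without region 4, a deep Pdpn-adjacent library with almost no muscle signal, Myh1 passed the threshold (log2 fold change 3.48, edgeR adjusted p = 0.0388, 1 of 2 probes called, 0.0102% of those tested). Shared mice can make these p-values too small as well.

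**Figure D4:**
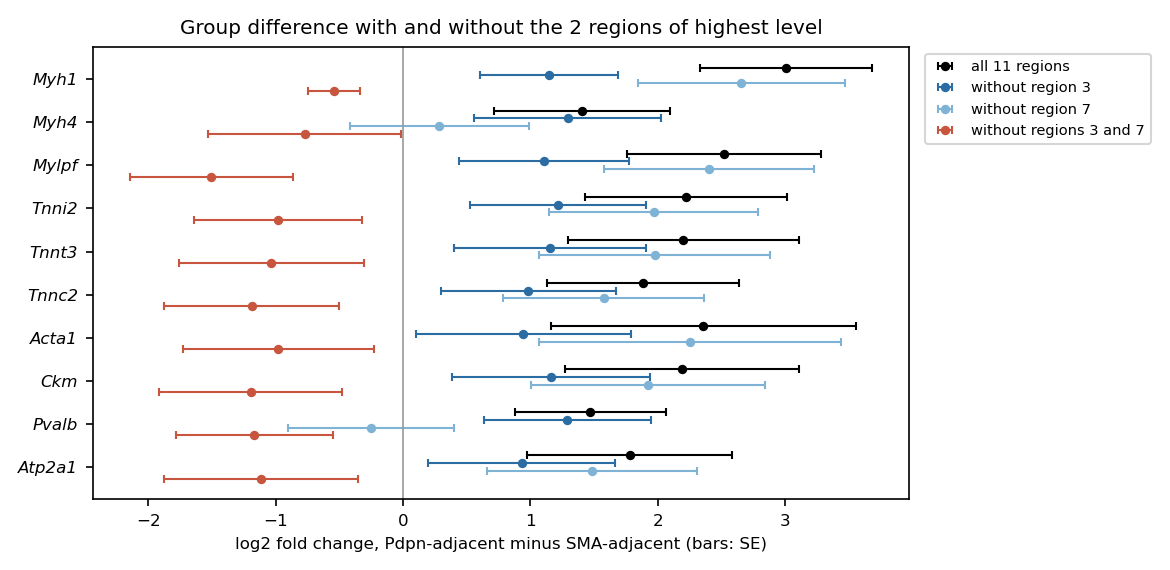
Log2 fold change of each of the 10 genes, Pdpn-adjacent minus SMA-adjacent, with SE bars, from the fit with all 11 regions and from fits without region 3, without region 7 and without both. All 10 points lie right of 0 with all regions (1.41 to 3.01) and all 10 lie left of 0 without regions 3 and 7 (-1.50 to -0.54).

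Other muscle genes were described from 5 lists, of other fast fibre genes, slow fibre genes, sarcomere genes common to fast and slow fibres, myogenic regulators, and heart muscle genes, 85 genes in all. None of the 85 passed the threshold. At an unadjusted p under 0.05, 5 were higher (5.88%) and 2 lower, against 2.84% and 3.19% of all probes. Their median log2 fold change was 0.12. By region, 30 of the 85 (35.3%) were above the floor in region 3, where 2.77% of all probes were, and 22 (25.9%) in region 7, where 5.73% were. Regions 2, 11, 8 and 4 had 13, 16, 7 and 6, or 15.3%, 18.8%, 8.24% and 7.06%, against 10.0%, 22.4%, 10.2% and 9.23% of all probes. Among SMA-adjacent regions, region 5 had 22 (25.9%), where 8.79% of all probes were above it. Regions 10, 9, 6 and 1 had 19, 18, 10 and 8, or 22.4%, 21.2%, 11.8% and 9.41%, close to the 19.2%, 19.1%, 12.5% and 12.2% of all probes. The lists divided sharply. Of 21 other fast fibre genes 11 were above the floor in region 3 and 11 in region 7, and of 28 common sarcomere genes 18 were in region 3 and 8 in region 7. Of 12 slow fibre genes 1 was in region 3 and 2 were in region 7, of 15 regulators 0 and 1, and of 9 heart genes 0 and 0.

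Among other fast genes, Eno3, the muscle enolase of glycolysis, stood at 41.6 and 24.7 times background in regions 3 and 7, but was above the floor in all 11 regions, at 6.06 to 12.2 times in SMA-adjacent ones. Pygm, the muscle glycogen phosphorylase, stood at 17.6 and 17.8 times in regions 3 and 7 and between 2.04 and 5.25 times beside SMA structures (1.20 ± 0.48 SE on the log2 scale, adjusted p = 0.758 with edgeR). Pgam2, a muscle glycolytic mutase, stood at 16.1 and 7.71 times in those 2 regions and at most 2.50 times in an SMA-adjacent one. Myl1, the fast essential light chain, stood at 13.5 and 10.2 times in regions 3 and 7 and at most 2.64 times in an SMA-adjacent one. The developmental heavy chains Myh3 and Myh8 were not above the floor in any region, with highest levels of 1.50 and 1.15 times.

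Most slow isoforms were at background where the fast ones were high. Myh7, the slow heavy chain, stood at 0.375 and 0.728 times background in regions 3 and 7 and was not above the floor in any region. Slow troponins Tnnt1 and Tnni1 reached at most 2.14 and 1.88 times and were not above the floor either. The slow troponin C gene Tnnc1 was just above it in SMA-adjacent regions 6 and 10, at 2.29 and 2.16 times. In regions 3 and 7 Tnnc1 stood at 1.88 and 2.33 times, the latter its highest level. It was below the floor there, since the floor of those regions lies higher over background. The slow light chains Myl2 and Myl3 reached 1.28 and 0.952 times. The 1 slow-list gene above the floor in region 3 was Mb, myoglobin, the oxygen store of oxidative fibres, which stood at 22.9 and 9.31 times in regions 3 and 7 and between 1.28 and 5.27 times beside SMA structures. Tpm3 and Atp2a2, tropomyosin and calcium pump genes of slow fibres that other cells also make, reached 5.34 times in region 11 and 3.35 times in region 7, where Atp2a2 was just above the floor, and both stood at 0.750 times in region 3. Of the common sarcomere genes, Tpm1 and Tpm2, tropomyosins that smooth muscle also makes, stood at 49.5 and 35.3 times in region 3 and at 24.2 and 15.9 times in region 7. Actn2, the alpha-actinin of Z-discs, stood at 17.6 and 3.64 times there, and Klhl41, a sarcomere assembly protein, at 12.4 and 3.78 times. Myom1, an M-band protein, stood at 2.63 and 2.47 times, below the floor in both, and was above it in SMA-adjacent region 9 alone, at 2.54 times.

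Of the genes that switch on muscle development, the muscle-specific factors were near background. Myod1, Myog and Myf6, myogenic transcription factors, reached at most 1.15, 1.09 and 1.02 times background and were above the floor in 0 regions. Mef2a, Mef2c and Mef2d, factors that many cell types make, reached 2.94, 3.58 and 3.79 times, in regions 10, 8 and 9. These 3 genes were above the floor in 5, 3 and 8 regions. Of heart genes, Actc1, cardiac actin, was above the floor in 1 region, at 2.25 times in region 5, and Myh6 and Nppb were above it in none.

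Regions 3 and 7 also differed from each other in which muscle genes they held. Over the 28 muscle genes above the floor in both, the level in region 3 was a median of 2.01 times that in region 7, and 24 were higher in region 3. Actn2 (4.85 times), Myh1 (3.72 times), Mylpf (3.10 times) and Acta1 (3.00 times) were among the genes furthest towards region 3, and Mb was at 2.46 times. Myh4 (0.450 times), Pvalb (0.520 times) and Actn3 (0.630 times), the alpha-actinin of fast fibres, were furthest towards region 7, and Pygm was level at 0.993 times. Each region is 1 library, so these ratios have no replicate check, and Actn3 in region 3 rests on 11 counts.

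The genes most like the 10 over regions were muscle genes as well. Likeness was the Pearson r, over 11 regions, between a gene's log2 CPM and the mean of the 10, among 3403 probes above the floor in at least 3 regions, as a description. The 8 nearest were Cox6a2 (r 0.978), a muscle subunit of cytochrome oxidase, Ttn (0.953), titin, Pgam2 (0.944), Pygm (0.944), Neb (0.923), the thin filament ruler nebulin, Myl1 (0.919), Mb (0.910) and Ryr1 (0.904), the calcium release channel of skeletal muscle. All 8 belong to the muscle lists. Among the 10 themselves r with their mean ran from 0.892 for Myh1 to 0.995 for Tnnt3, and a gene counts in its own mean. The values of a region share its library and depth.

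Markers of other cell types stood at different levels in the regions rich in muscle transcripts. The 10 fibroblast genes, the cells that ZSGreen was meant to mark, had mean levels between 0.952 and 9.03 times background in Pdpn-adjacent regions, against 5.48 to 16.2 times beside SMA structures. Of these 10, 0 were above the floor in region 3 (2.77% of all probes), 5 in region 7 (5.73%) and 0 in region 2 (10.0%). Regions 4, 8 and 11 had 7 (9.23%), 9 (10.2%) and 5 (22.4%). SMA-adjacent regions had 6 (region 5, 8.79%) to 10 (region 10, 19.2%). Region 3 had Col1a1 and Dcn, a collagen and a proteoglycan of fibroblasts, both at 1.88 times, while region 7 had them at 17.8 and 10.3 times. In region 2 all 10 fibroblast genes and all 8 fat cell genes stood at the lowest count of 1, as 90.0% of all probes did. Of the 10 fast muscle genes 9 did not. The 8 fat cell genes had means between 0.952 and 30.2 times in Pdpn-adjacent regions, against 14.4 to 39.0 times beside SMA structures, at 3.66 times in region 3 and 30.2 times in region 7. The 14 smooth muscle genes had means between 1.21 and 8.09 times in Pdpn-adjacent regions, against 4.25 to 17.9 times beside SMA structures, with Acta2 at 2.25 and Myh11 at 0.375 times in region 3, where the list's level came from Tpm1, Tpm2 and Des, which skeletal muscle makes too. Of 7 lymphatic markers 1 was above the floor in Pdpn-adjacent region 11 and 1 in SMA-adjacent region 9, and 0 in each of the other 9 regions, where 2.77% to 19.2% of all probes were. The part of cell make-up and of depth in the muscle levels was not tested.

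**Figure D5:**
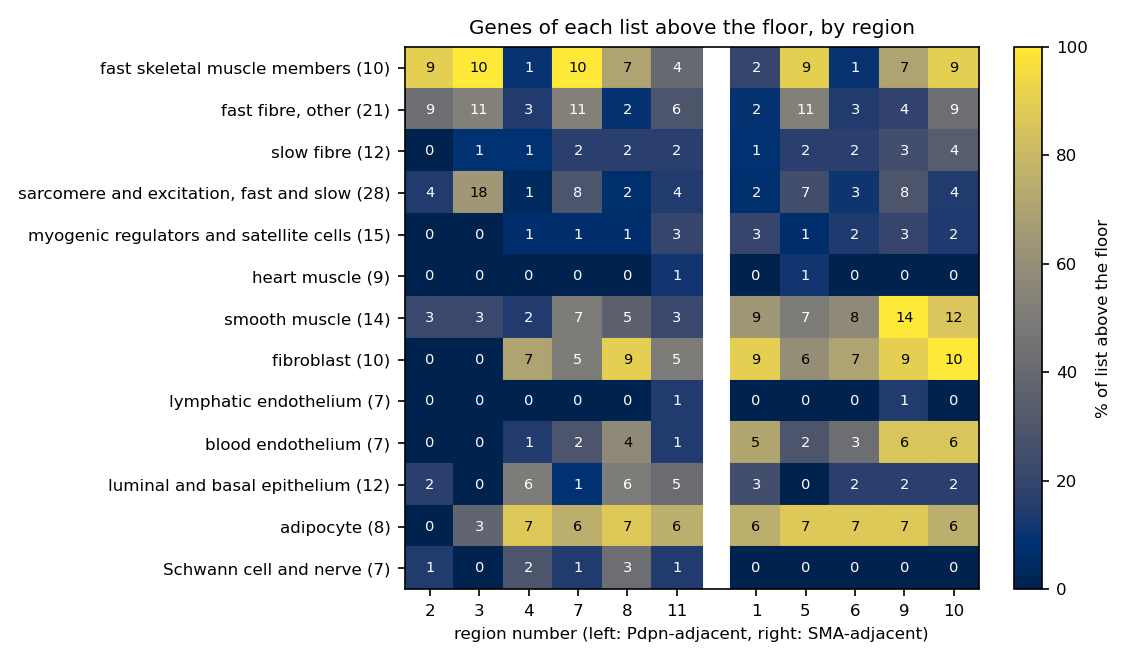
Number of genes of each list above the floor in each region (Pdpn-adjacent at left, SMA-adjacent at right), with colour for the percentage of the list and list sizes in brackets. In region 3, where 2.77% of all probes are above the floor, 10 of 10 fast muscle, 18 of 28 common sarcomere and 0 of 10 fibroblast genes are. In region 7, where 5.73% of all probes are, 10 of 10 fast muscle and 5 of 10 fibroblast genes are.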

How the data were processed

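Transcripts were measured in ZSGreen-positive segments of mammary gland with GeoMx probes, per the labels' protocols. The deposited values are raw counts for each probe and region (19965 endogenous, 210 negative-control probes), judged from the values. Per the file headers, probe coordinates use GRCm38.p6. Whether its lowest value, 1, was added to or replaced zeros, and the steps from reads to counts, are not given in the sources used here. Negative probes were kept out of library sizes and tests.

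Probes kept by filterByExpr (19935) were tested with edgeR 4.0.16 in R 4.3.3: TMM, quasi-likelihood, two-sided, Benjamini-Hochberg over all of them. SEs are those implied by p. Alternatives used DESeq2 1.42.0, limma 3.58.1, other scalings, filters, a covariate, or fewer regions. The test was tested on simulated data. Gene names and promoters come from RefSeq.

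Members, lists and alternatives were chosen with earlier results of these data known. Besides the 10 genes, the text names Postn, Pdpn and Acta2, up to 3 genes per muscle list by smallest p and up to 3 by highest level among those above the floor in 2 or more regions, and the 8 most alike; Myh2, Myh3, Myh7, Myh8, Tnnc1, Actn3, Des and other genes named with them were added after their values were seen.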

Additional observations from a re-analysis of the deposited data

How the results depend on the processing

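Over 23 alternatives for each of the 10 genes (230 values), 218 kept both direction and side of the threshold, 1 gained a call and 11 reversed. Without regions 3 and 7 the log2 fold changes were -0.54 for Myh1, -0.77 for Myh4, -1.50 for Mylpf, -0.98 for Tnni2, -1.03 for Tnnt3, -1.19 for Tnnc2, -0.98 for Acta1, -1.20 for Ckm, -1.17 for Pvalb and -1.12 for Atp2a1, with a median of -1.07. Leaving out a region, Pvalb ran from -0.25 (without region 7) to 1.92 (without region 4), and without region 4 Myh1 was called (3.48, edgeR adjusted p = 0.0388). Over the alternatives Myh1's adjusted p ran from 0.0388 to 1.00. The count of the 10 genes called was 0 with all regions, and 0 to 1 leaving out a region.

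Of all probes tested, 2 were called with every region and between 1 and 53 leaving out a region, the highest without SMA-adjacent region 5 and the next, 13, without region 7. The count was 1 with scaling by negative probes, 0 with limma-voom, 1 with array weights, 17 with DESeq2, 8 with robust spread, 37 with the negative-probe share as a covariate, 1 without regions 2, 3 and 11, 1 without regions 2 and 11, and 14 without regions 3 and 7. The cause was not tested. Of the 85 other muscle genes 2 were called with the covariate, and their median log2 fold change, 0.12 with all regions, was between -0.0246 (without region 3) and 0.441 (without region 4) leaving out a region, -0.0247 without regions 2, 3 and 11, -0.19 without regions 3 and 7 and -0.0039 with the covariate. The median over all probes moved to 0.14 with limma-voom and 0.11 with array weights. Gene and region pairs above the floor numbered 69 of 110, 64 at 3 SDs and 62 over the highest negative probe. Of the 8 most alike genes 6 were shared with a ranking by Spearman's rho and 5 with one lacking regions 2 and 11. No paired analysis was possible because the groups share no replicate numbers and the labels tie no region to a mouse. Depth limits regions 2 and 11, where most probes stand at a count of 1.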
